A study of Homo sapiens with 18 samples.

Results

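EHF was raised in the head and neck squamous cell carcinoma (HNSCC) lines A253 and SCC25 and lowered in CAL27, another HNSCC line, and the results below set these opposite changes side by side. The comparison uses 16 of the 18 samples of the series, all of them RNA sequencing libraries. Members are the genes whose expression reversed with the direction of the EHF change and the genes that moved the same way under both. A253 gave 3 control libraries grown in regular medium and 3 EHF overexpressing libraries grown with doxycycline, which induced EHF expression there. SCC25 gave 2 libraries of each kind under the same media. CAL27 gave 2 control libraries, named sh Control in the count table, and 4 EHF knockdown libraries, 2 named sh 64 and 2 named sh 65, all in regular medium. The labels number the knockdown cells 1 and 2 without tying them to these names, and the deposited count and TPM tables assign the names sh 64 and sh 65 the opposite way round, so the names of the count table are used. A CAL27 chromatin sample and its input DNA were not analysed here. Because only the overexpressing cells received doxycycline, the drug and the overexpression cannot be told apart. The direction of the EHF change also goes with the cell line: CAL27 was never raised, and A253 and SCC25 were never lowered. The labels do not say whether replicates came from separate cultures, so p-values measure only the spread between these samples. Vector, promoter and clonality of the cells are not given in the sources used here.

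EHF is a transcription factor of the ETS family, whose members bind DNA sites built around the core GGAA through a conserved domain. It is expressed in stratified and glandular epithelia and belongs with ELF3 and ELF5 to an epithelium-restricted branch of the family. ETS factors can activate or repress their targets, so genes may follow the factor or run against it.

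The A253 libraries held between 11090976 and 17823293 gene counts, the SCC25 libraries between 10728569 and 15965279, and the CAL27 libraries between 7068155 and 19962159. The 12 squamous carcinoma identity markers (EPCAM, CDH1, keratins, TP63 and others) were all above 1 CPM in every group. Fibroblast markers summed to 8.53 to 117 CPM, leukocyte markers to 128 to 133 in A253 controls against 176 to 191 with EHF, up to 258 against 257 to 260 in SCC25, and 46.9 to 47.6 in CAL27 controls against 40.5 to 42.3 with the knockdowns, endothelial markers to 5.92 to 11.6, and salivary gland markers to at most 1.03 in A253 and SCC25 and 20.3 to 58.3 in CAL27. Of those that were tested in both comparisons, 3 fibroblast, 4 leukocyte and 2 endothelial markers, none was called under both EHF changes. However, 2 of the 4 leukocyte markers were called higher with EHF raised and 1 of the 3 fibroblast markers with EHF lowered. In SCC25 alone 2 of the 3 fibroblast markers were called higher. The sum over all fibroblast markers there was 96.2 to 108 CPM in controls and 116 to 117 with EHF. The part of all these markers in the results was not tested. In bulk samples, fewer cells of a type and less RNA per cell cannot be told apart. The SCC25 EHF overexpression replicates differed most for their depth, with a chi-square of 16.6 per degree of freedom against 2.48 to 9.11 in the other groups.

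Levels are given as CPM (counts scaled to library size), corrected by the TMM factors within each cell line. Effects are log2 changes from edgeR's quasi-likelihood test, and a gene is called, and said to rise or fall, where its p adjusted by Benjamini and Hochberg over all genes tested was below 0.05. The effect of raising EHF is the equally weighted mean of the A253 and SCC25 log2 changes. The effect of lowering EHF is the mean of the sh 64 and sh 65 log2 changes in CAL27. The comparisons of raised and lowered EHF share no library.

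EHF itself was measured at 84.5, 91.4 and 83.2 CPM in the A253 controls and 765, 711 and 633 CPM with overexpression, a rise of 8.13-fold (log2 change 3.02, adjusted p = 4.63e-13). In SCC25 it went from 461 and 420 to 859.5 and 892 CPM, a rise of 1.99-fold (log2 change 0.99, adjusted p = 9.11e-13). CAL27 controls held 962 and 992 CPM, sh 64 libraries 497 and 526 and sh 65 libraries 444 and 469, so that EHF fell by 2.02-fold (log2 change -1.02, adjusted p = 1.35e-08). No group overlapped its control. Levels were scaled within each line and are not compared between lines. The SCC25 rise was smaller than the A253 rise by 2.05 on the log2 scale (adjusted p = 5.56e-10, interaction in edgeR).

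**Figure D1:**
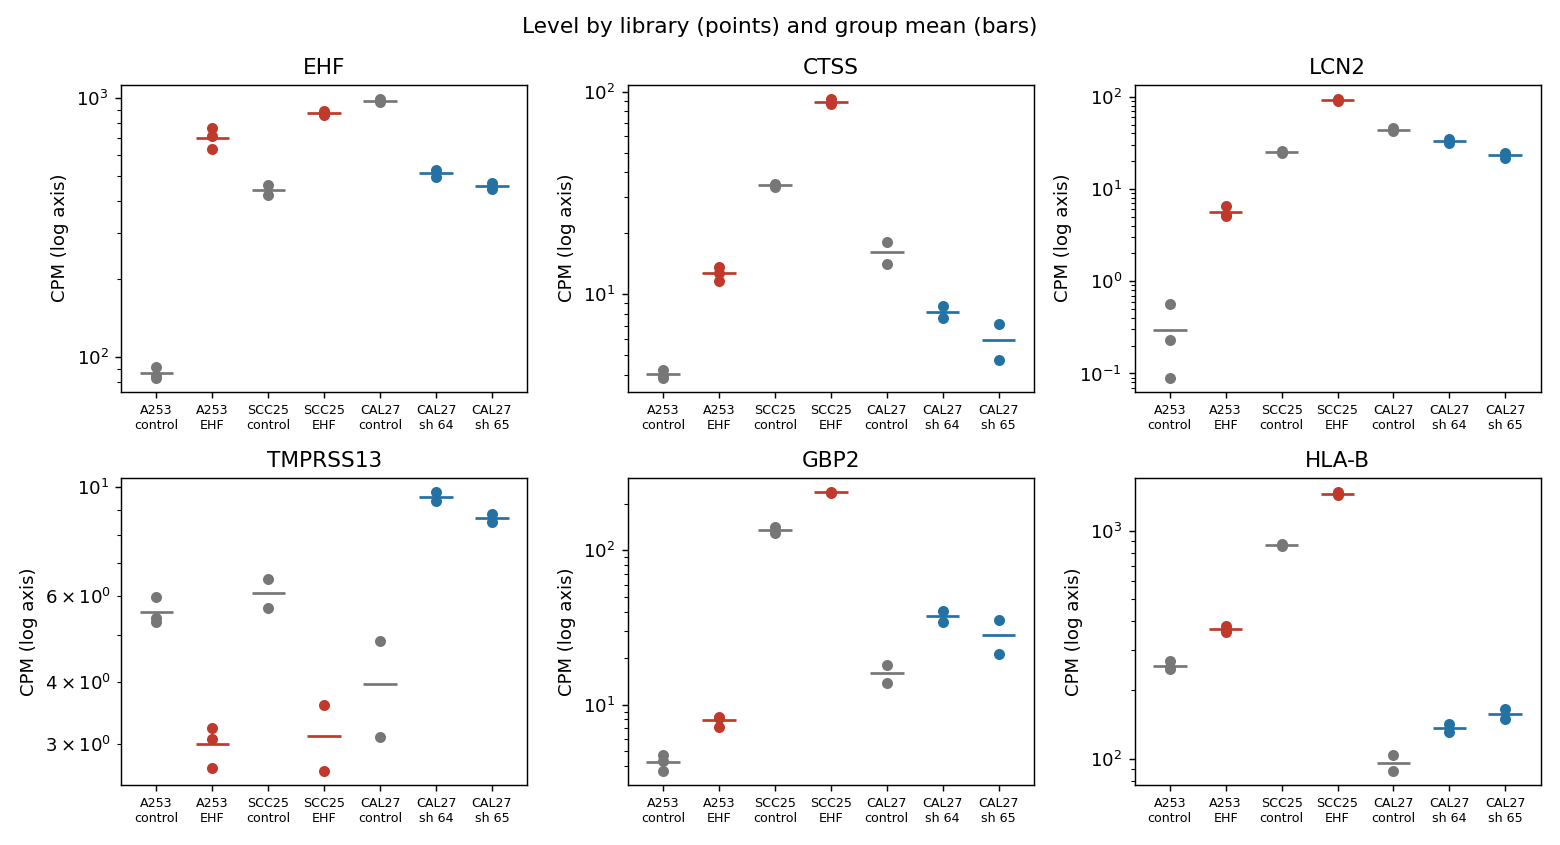
CPM on a log axis for EHF and 5 genes in each library (points; grey, control; red, EHF overexpression; blue, knockdown), with the group mean as a bar. CTSS and LCN2 went with EHF in each line, TMPRSS13 went the other way, and GBP2 and HLA-B were higher than control under both changes.

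With EHF raised, 2035 of 15460 genes tested were called (13.2%), 1090 of them higher (7.05%) and 945 lower (6.11%). With EHF lowered, 2560 of 13629 were called (18.8%), 1346 higher (9.88%) and 1214 lower (8.91%). Among the 13435 genes tested in both, 150 rose with EHF raised and fell with EHF lowered (1.12%), and 124 fell with EHF raised and rose with EHF lowered (0.923%). The genes that reversed thus came to 274 (2.04%). The genes that moved alike came to 353 (2.63%), 201 of them higher under both changes (1.5%) and 152 lower under both (1.13%). Genes that passed both tests in the same direction therefore outnumbered those that reversed.

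As a share of the 1006 genes that rose with EHF raised, 14.9% fell and 20% rose with EHF lowered, against 8.92% and 9.94% of all genes tested in both. Of the 906 genes that fell with EHF raised, 13.7% rose and 16.8% fell with EHF lowered. Read from the other side, the 1199 genes that fell with EHF lowered included 12.5% that rose and 12.7% that fell with EHF raised. The 1335 that rose with EHF lowered included 15.1% that rose and 9.29% that fell with EHF raised, against 7.49% and 6.74% of all genes. Across the 13435 genes the raised and lowered effects had a Pearson correlation of 0.037 and a Spearman correlation of 0.089, as a description over genes, which share their libraries and are not independent.

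**Figure D2:**
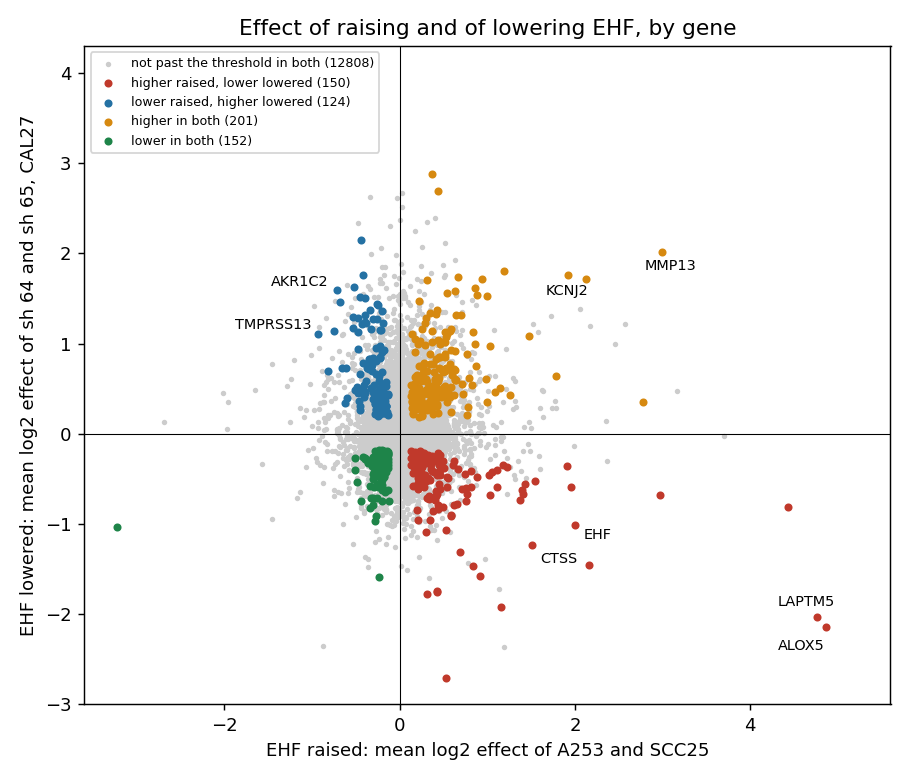
Mean log2 effect of raising EHF in A253 and SCC25 (x axis) against the mean log2 effect of sh 64 and sh 65 in CAL27 (y axis) for the 13435 genes tested in both, coloured where both tests passed. The 150 genes that follow EHF lie at the lower right and include the labelled points farthest to the right, LAPTM5 and ALOX5, whose fitted positions depend on very low control counts in 1 line.

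Which of these kinds was larger depended on the overexpression line. Called with the A253 effect in place of the mean, 160 genes moved alike with the knockdown and 216 reversed. With the SCC25 effect, 635 moved alike and 313 reversed. An additive model over both lines gave 211 and 213, and DESeq2 gave 192 and 157. A253 alone had 1156 of 14503 genes called (7.97%, with 5.03% higher and 2.94% lower) and SCC25 alone 3370 of 14120 (23.9%, with 12.2% higher and 11.6% lower). The A253 and knockdown effects had a Pearson correlation of -0.079 across 13108 genes, and the SCC25 and knockdown effects one of 0.113 across 12951. The effects of the overexpression lines had one of 0.29 across 12658 genes. The interaction of line and EHF was called for 871 genes (5.63%, with 2.39% higher in SCC25 and 3.25% lower). Requiring a call in all 3 lines with the same sign in A253 and SCC25 left 55 genes that followed EHF (0.435% of 12658), 27 that ran against it (0.213%), 83 higher under both changes (0.656%) and 15 lower under both (0.119%).

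The counts rest on few CAL27 controls. Without CAL27 control 1 the lowered comparison had 937 calls, and 80 genes followed EHF, 61 ran against it, 103 were higher and 54 lower under both changes. Without CAL27 control 2 these classes held 87, 60, 128 and 56 genes. Without SCC25 control 2 the raised comparison had 1216 calls, 65 genes were lower under both changes and 84 ran against EHF. Genes lower under both changes also numbered 74 without SCC25 EHF overexpression 1, 82 without SCC25 EHF overexpression 2, 95 without A253 control 1 and 100 without SCC25 control 1, and those running against EHF numbered 78 without SCC25 EHF overexpression 1.

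Most members changed little. The median effect of raising EHF was 0.36 in genes that followed EHF and that of lowering it -0.44. In genes that ran against EHF the medians were -0.26 and 0.49, in those higher under both 0.37 and 0.56, and in those lower under both -0.21 and -0.32. At least 1.5-fold in both comparisons were 26 genes that followed EHF, 7 that ran against it, 30 higher under both and 1 lower under both. The last is GPR3, named after its values were seen, a receptor of low level that was not tested in SCC25 alone and whose lowered effect of -1.04 had an adjusted p of 0.0485. Both overexpression lines gave the same sign for 136 of the 150 genes that followed EHF, 111 of 124 that ran against it, 178 of 201 that were higher under both and 135 of 152 that were lower under both. Of all 13435 genes tested in both, 7049 had the same sign. The members were chosen by the mean of these line effects, so this agreement follows in part from the choice. A call in both lines with the same sign was held by 55, 27, 83 and 15 members of these classes, and by 420 of all genes. The mean of the lower genes came mostly from SCC25, which called 117 of the 152 where A253 did not. Singly, sh 64 had 15.7% of genes called (8.76% higher, 6.89% lower) and sh 65 14.6% (7.62% higher, 7.01% lower), and the difference between them was called for 5.34% (2.21% higher with sh 65, 3.13% lower). Both knockdowns were called with the same sign for 81, 59, 109 and 66 genes of the classes in the same order, and for 1006 of all 13435. The members were chosen by the mean of both knockdowns, so this agreement too follows in part from the choice. The difference of the raised and the lowered effect, tested in a fit of all 16 libraries (2196 of 15844 genes called, 13.9%, with 7.32% higher and 6.55% lower), rests on the effects that chose the members and is given below for single genes as a description.

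Genes that followed EHF were led by a small number with large changes. LAPTM5, a lysosomal membrane protein best known from blood cells, was measured at 0.115, 0 and 0 CPM in the A253 controls and 4.34, 6.01 and 5.58 with EHF, at 4.82 and 4.46 (control) and 32.5 and 33.9 (EHF) in SCC25, and at 12.3 and 12.2 in the CAL27 controls, 3.55 and 2.97 with sh 64 and 2.77 and 2.54 with sh 65. The A253 controls held 2 counts in all against 245 with EHF, a ratio of 124 with an exact 0.95 interval from 34 to 1030 that covers counting error only. In SCC25 the log2 change was 2.84 (adjusted p = 2.18e-15) and in CAL27 -2.03 (adjusted p = 2.45e-07). ALOX5, the 5-lipoxygenase that starts leukotriene synthesis, was at 0.288, 0.169 and 0.271 CPM in A253 controls and 6.27, 6.68 and 6.39 with EHF, and at 0.123 and 0.0676 (control) and 3.49 and 3.33 (EHF) in SCC25. The SCC25 controls held 3 counts against 87, a ratio of 35.1 (0.95 interval 11.6 to 173). In CAL27 it was at 3.54 and 3.13 CPM in the controls, 0.386 and 0.425 with sh 64 and 1.33 and 1.33 with sh 65 (log2 change -2.15, SE 0.30, adjusted p = 7.45e-05). All treated libraries lay outside the range of their controls for both genes. The naming rule, given at the end, required this of the 6 leading genes of each class, so for LAPTM5 it followed from the choice. Of all 13435 genes tested in both, 880 had no overlap of treated and control libraries in any line.

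CTSS, a lysosomal cysteine protease that trims antigens, was higher at 11.6, 13.6 and 12.7 CPM than the A253 controls at 3.97, 4.22 and 3.88, and higher at 86.3 and 92 than the SCC25 controls at 33.9 and 35. In CAL27 it fell from 14 and 18.1 CPM to 8.73 and 7.64 with sh 64 and 4.72 and 7.14 with sh 65. The raised effect was 1.51 (SE 0.067, adjusted p = 1.82e-12) and the lowered effect -1.23 (SE 0.16, adjusted p = 2.86e-05), and the test for a difference between the lines did not pass (interaction adjusted p = 0.234). LCN2, an iron-scavenging defence protein, was at 0.23, 0.562 and 0.0902 CPM in A253 controls and 5.13, 5.29 and 6.47 with EHF, and at 25.8 and 24.6 (control) and 89.8 and 95 (EHF) in SCC25. CAL27 held 42.4 and 45.6 CPM in the controls, 31.4 and 35.1 with sh 64 and 21.7 and 24.7 with sh 65. Its raised effect was 2.97 (adjusted p = 3.62e-12) and its lowered effect -0.68 (adjusted p = 5.76e-05). By the naming rule, no treated library overlapped its controls.

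SDPR, a coat protein of caveolae, rose from 8.28, 8.27 and 8.21 to 27.1, 28.3 and 28.9 CPM in A253 and from 14.9 and 14.6 to 27.8 and 30.4 in SCC25, and fell from 26.4 and 29.2 to 14.4 and 12.2 with sh 64 and 22 and 20.1 with sh 65 (raised effect 1.37, lowered effect -0.73). MMP7, a metalloproteinase of glandular epithelium, was at 0.46, 0.731 and 0.631 (control) and 3.77, 3.23 and 2.28 (EHF) CPM in A253, 5.13 and 4.12 (control) and 19.3 and 17.4 (EHF) in SCC25, and 4.98 and 5.55 (control), 1.16 and 2.55 (sh 64) and 2.05 and 2.42 (sh 65) in CAL27. RNASE7, an antimicrobial ribonuclease of skin, had a raised effect of 1.15 (adjusted p = 0.000353) and a larger lowered effect of -1.92 (adjusted p = 2.45e-07), from 19.6 and 16.6 CPM to 6.18 and 7.78 (sh 64) and 3.8 and 2.66 (sh 65). For these 3 genes no treated library overlapped its controls in any line, which the naming rule required of SDPR. SLC4A11, a membrane transporter, had effects of 0.76 and -0.74, and its lowered call was lost without CAL27 control 1 (adjusted p = 0.108) or sh 64 replicate 1 (0.0705).

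Promoter sequence is shown for 3 of these genes, chosen because they share a variant of the ETS core, AGGAAGT. The promoters of EHF, LCN2 and RNASE7 held neither AGGAAGT nor CGGAAG. The RefSeq promoter table (GRCh38.p14, 250 bases before to 50 after each gene's start) held 110 of the 150 genes that followed EHF and 10466 of the 13435 tested. The letters AGGAAGT, on either strand, were in 15 of the 110 (13.6%), against 7.93% of the tested genes in the table and 8.31% of all 27305 promoters in it. The share was not higher in the genes that followed EHF in all 3 lines (3 of 38, 7.89%). It was 10.8% in the genes that ran against EHF (10 of 93) and 19.0% in those that did so in all 3 lines (4 of 21). The letters CGGAAG were in 12.7% of the 110 against 32.9% of the tested genes, and CCGGAAGT, which contains CGGAAG, in 2.73% against 8.76%. All 3 contain the core GGAA, which 98.2% of the 110 and 95.4% of the tested genes held. These shares are a description, and a match is not a binding site. Each line below gives 127 bases with AGGAAGT, or its reverse complement, in capitals and 60 bases on either side, read 5′ to 3′ on the gene's own strand, which is the minus strand for all 3.
LAPTM5 (chr1:30757779-30757905): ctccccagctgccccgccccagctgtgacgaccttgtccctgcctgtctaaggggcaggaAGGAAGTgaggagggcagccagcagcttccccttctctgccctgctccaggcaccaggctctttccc
SDPR, now CAVIN2 (chr2:191847130-191847256): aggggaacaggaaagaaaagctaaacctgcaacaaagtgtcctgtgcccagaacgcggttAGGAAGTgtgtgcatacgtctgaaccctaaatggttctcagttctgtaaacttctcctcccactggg
MMP7 (chr11:102530827-102530953): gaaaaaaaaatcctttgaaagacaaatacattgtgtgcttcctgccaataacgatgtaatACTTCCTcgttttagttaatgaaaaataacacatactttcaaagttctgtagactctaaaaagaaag
The capitals begin 71 bases before the gene's start in LAPTM5, 108 in SDPR and 146 in MMP7, where the reverse complement is in the printed strand.

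Further genes that followed EHF came from the gene lists. Of the genes named below with values, C3, TLR2, IL8, AKR1B10, AKR1C3, GSR, SLC3A2, MCM2, RRM2, OAS1 and IRF1 are outside the naming rule and were chosen after their values were seen. The integrin subunits ITGA3 and ITGB1, which anchor basal keratinocytes, had raised effects of 0.22 and 0.21 and lowered effects of -0.49 and -0.34, and in both genes A253 alone was not called (adjusted p = 0.155 and 0.189). PLAUR, the urokinase receptor, had effects of 0.44 and -0.84, and its raised call was lost without SCC25 control 1 (adjusted p = 0.0568) or SCC25 EHF overexpression 2 (0.0877). ERO1L, an oxidase of the endoplasmic reticulum, had 0.26 and -0.37 and was called in all 3 lines. THBS1, a matrix glycoprotein, had 0.49 and -0.81, and leaving out any one of CAL27 control 1, either sh 64 library, either SCC25 control or SCC25 EHF overexpression 1 ended 1 of its calls (adjusted p from 0.0627 to 0.107). AK4, a mitochondrial adenylate kinase, had 0.19 and -0.39, and its raised call was lost without SCC25 control 2 (0.0573) or SCC25 EHF overexpression 1 (0.0711). CDH11, an adhesion protein named here after its values were seen for the most negative lowered effect of this class, was at 6.63 and 6.51 CPM in the CAL27 controls and 1.08 and 0.566 (sh 64) and 1.33 and 0.848 (sh 65) (lowered effect -2.71). It was at 3.91, 5.46 and 4.15 (control) and 6.76, 7.85 and 8.08 (EHF) CPM in A253 and 12 and 14.7 (control) and 17.9 and 15.9 (EHF) in SCC25 (raised effect 0.53).

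Genes that ran against EHF, like those of the other classes, had smaller effects with EHF raised than with EHF lowered, by the medians above. TMPRSS13, a membrane-anchored serine protease, was at 5.41, 5.96 and 5.32 CPM in A253 controls and 3.06, 2.67 and 3.23 with EHF, at 6.49 and 5.68 (control) and 2.64 and 3.59 (EHF) in SCC25, and at 3.1 and 4.85 in CAL27 controls, 9.35 and 9.77 with sh 64 and 8.83 and 8.47 with sh 65. The raised effect was -0.93 (SE 0.13, adjusted p = 2.63e-05) and the lowered effect 1.11 (SE 0.18, adjusted p = 0.000372). By the naming rule, no treated library overlapped its controls. NEFL, a neurofilament subunit, fell from 149, 146 and 155 to 90.8, 92.1 and 89.4 CPM in A253 and from 36.8 and 41.9 to 25.6 and 21 in SCC25, and rose from 12.3 and 11.8 to 24.4 and 23.6 with sh 64 and 26.1 and 32.3 with sh 65. AKR1C2, an aldo-keto reductase that reduces steroids, fell from 5.87, 6.69 and 7.31 to 3.92, 3.84 and 3.89 CPM and from 84.1 and 71.8 to 45.2 and 52.6, and rose from 3.98 and 4.09 to 13.4 and 16.6 (sh 64) and 8.21 and 12.3 (sh 65) (effects -0.72 and 1.59). The AKR1C genes are near-identical copies, so reads may be split among them.

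SOX2, a transcription factor of squamous stem cells, fell from 49.2, 44.6 and 46.7 to 33.3, 35.9 and 37.5 CPM in A253 and from 14.6 and 12.2 to 9.05 and 8.25 in SCC25. It rose from 3.87 and 4.14 to 11.9 and 11.2 with sh 64 and 12.1 and 15 with sh 65, a lowered effect of 1.63 (adjusted p = 2.29e-06) beside a raised effect of -0.53 (adjusted p = 2.91e-05). SPTLC3, a subunit of the enzyme that starts sphingolipid synthesis, had effects of -0.61 and 0.73, and CTSL2, a lysosomal protease of the epidermis, of -0.40 and 0.46, each called in all 3 lines. ABCG2, a drug efflux transporter, had -0.82 and 0.69, and its lowered call was lost without CAL27 control 2 (adjusted p = 0.0713). GPX2, a glutathione peroxidase, had -0.53 and 1.17, with the same loss (0.0783), and was not called in A253 alone (adjusted p = 0.0566). HCAR2, a metabolite receptor named here after its values were seen, had the highest lowered effect of this class, from 2.65 and 2.88 to 11.3 and 10.8 (sh 64) and 12.7 and 15.5 (sh 65) CPM (2.15). With EHF raised it fell in A253 from 6.9, 7.82 and 6.22 to 3.85, 3.95 and 3.67 and was at 20.1 and 18.5 (control) and 19.2 and 19.6 (EHF) in SCC25, where the change was 0.005.

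Genes higher under both changes were led by MMP13, a collagenase, at 64.6, 61.9 and 64.1 CPM in A253 controls and 239.6, 254 and 286 with EHF, 142 and 124 (control) and 2191 and 1935 (EHF) in SCC25, and 24.6 and 30 (control), 81.6 and 90.4 (sh 64) and 112 and 181 (sh 65) in CAL27. Its raised effect was 2.99 (adjusted p = 5.98e-18) and its lowered effect 2.01 (adjusted p = 0.0145). By the naming rule, no treated library overlapped its controls. The lowered call was lost without CAL27 control 1 (adjusted p = 0.108) or control 2 (0.0934). The raised effect also exceeded the lowered one (0.99, adjusted p = 0.015). KCNJ2, a potassium channel, rose from 2.59, 2.36 and 1.98 to 14.7, 15.1 and 17.1 CPM in A253, from 2.66 and 2.91 to 5.85 and 6.19 in SCC25, and in CAL27 from 0.442 and 0.909 to 4.02 and 3.25 with sh 64 and 1.64 and 1.94 with sh 65 (effects 1.92 and 1.76). CYP1A1, the classic target of the aryl hydrocarbon receptor, rose from 6.63 and 7.07 CPM to 55 and 61 with sh 64 and to 9.55 and 10.5 with sh 65, so that the knockdowns differed in size (adjusted p = 7.98e-10). With EHF raised it went from 2.93, 3.71 and 3.97 to 5.27, 6.24 and 6.39 in A253 and from 0.865 and 0.879 to 2.73 and 2.66 in SCC25.

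SERPINB13, a keratinocyte protease inhibitor, had effects of 1.00 and 1.52, and TMPRSS4, another membrane-anchored serine protease, of 0.88 and 1.54. Unlike TMPRSS13, TMPRSS4 rose from 3.32 and 5.71 to 13.4 and 13.7 (sh 64) and 13.6 and 15.6 (sh 65) CPM in CAL27 and also rose from 59.3 and 51.7 to 128 and 134 in SCC25 and from 25.1, 25.2 and 32.5 to 42.3, 37 and 39.8 in A253. S100A9, a calcium-binding alarmin, had a raised effect of 1.48 that came mostly from A253 (2.74, against 0.22 in SCC25) and a lowered effect of 1.08, larger with sh 64 (1.62) than with sh 65 (0.54, adjusted p of the difference = 0.00025). WNT4, a secreted signalling ligand, had 0.84 and 1.12, and ETV7, an ETS repressor induced by interferon, had 0.86 and 1.62. KRT19, a simple-epithelium keratin named after its values were seen, had the highest lowered effect of the class at 2.88, from a low 1.11 and 0.656 CPM to 5.72 and 3.82 (sh 64) and 6.16 and 8.6 (sh 65). It stood at 124 and 132 (control) and 189 and 197 (EHF) CPM in SCC25 and 1153, 1084 and 1227 (control) and 1299, 1249 and 1278 (EHF) in A253. STRA6, a receptor for retinol-binding protein, had 1 count in the SCC25 controls and 16 with EHF, a ratio of 19.3 (0.95 interval 3 to 811), and its lowered effect of 1.71 was lost without either CAL27 control or sh 64 replicate 1 (adjusted p from 0.0674 to 0.289).

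Genes lower under both changes had the smallest median effects of the 4 classes. The tubulins TUBB and TUBA1C, building blocks of microtubules, had raised effects of -0.36 and -0.36 and lowered effects of -0.32 and -0.31. TUBB was at 2060, 1883 and 1907 (control) and 1584, 1609 and 1689 (EHF) CPM in A253, 1701 and 1812 (control) and 1266 and 1299 (EHF) in SCC25, and 2007 and 2028 (control), 1450 and 1613 (sh 64) and 1727 and 1686 (sh 65) in CAL27. By the naming rule, its groups did not overlap in any line. Tubulin genes have near-identical copies, and the lowered call of TUBA1C was lost without CAL27 control 2 (adjusted p = 0.0779). GALNT10, an enzyme of O-linked glycosylation, had -0.34 and -0.82, and without CAL27 control 2 its lowered call was lost (0.182). CLN6, a protein of the endoplasmic reticulum, had -0.31 and -0.45, and was not called in A253 alone (adjusted p = 0.318). CPA4, a carboxypeptidase, had -0.51 and -0.40, and was not called in SCC25 alone (adjusted p = 0.0844). Its lowered call was lost without CAL27 control 1 (effect -0.357).

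**Figure D3:**
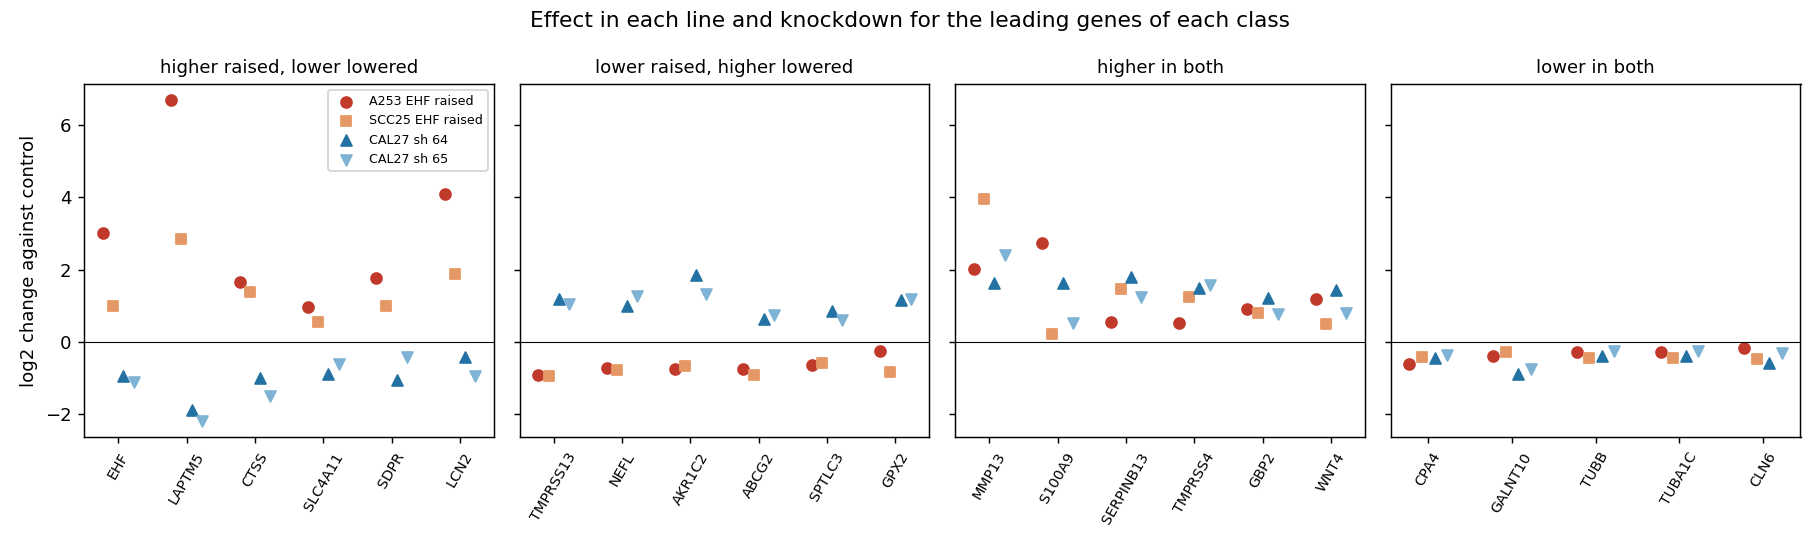
Log2 change against control in A253, SCC25, sh 64 and sh 65 for EHF and the leading genes of each class by the naming rule. In each panel the signs in A253 and SCC25 are the same by that rule, and the LAPTM5 point in A253 is a fitted value over 2 control counts, not a bound.

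Type I interferon genes, whose products block virus replication, moved alike most often of the lists. Of 55 members, 24 rose under both changes (43.6%, beside 1.5% of all genes), 30 rose with EHF raised and 40 with EHF lowered, and the median effects were 0.24 and 0.42 beside -0.0096 and 0.0024 for all genes. Counts of this and the other lists are to be read beside the shares of all genes tested in both. The lists were chosen with earlier results of these data known. A list share above that of all genes is therefore a description and no test of the list. With EHF raised 7.49% rose and 6.74% fell, and with EHF lowered 9.94% rose and 8.92% fell. Of the same genes 1.12% followed EHF, 0.923% ran against it, and 1.5% were higher and 1.13% lower under both. IFITM1 rose from 156, 143 and 159 to 284, 301 and 337 CPM in A253, from 95.9 and 107 to 202 and 196 in SCC25, and from 41.7 and 54.2 to 74.9 and 78.3 (sh 64) and 65.1 and 78.3 (sh 65) in CAL27. GBP4, a guanylate-binding protein outside that list, had effects of 0.77 and 0.89, and GBP2 of 0.86 and 1.00, its lowered call being lost without CAL27 control 1 (adjusted p = 0.0915) or sh 64 replicate 1 (0.0526). RTP4, OAS1 and IRF1 also rose under both, with raised effects of 0.63, 0.40 and 0.77 and lowered effects of 0.60, 0.68 and 0.21. For RTP4 the lowered call was lost without CAL27 control 1 (0.0516). The count of 24 was 13 without CAL27 control 1 and 16 with sh 64 alone. OASL and HERC5 rose with EHF lowered (0.85 and 0.97) and fell with EHF raised (-0.22 and -0.22). Their changes were -0.57 and -0.57 in A253 and 0.13 and 0.13 in SCC25, where neither was called. That raised call was lost without A253 EHF overexpression 2 or any of 3 SCC25 libraries in HERC5 (adjusted p from 0.0613 to 0.172), and without A253 control 1, A253 EHF overexpression 2, SCC25 control 1 or SCC25 EHF overexpression 2 in OASL (from 0.078 to 0.157).

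HLA class I and antigen presentation genes, which display peptides to T cells, rose with EHF raised for 18 of 21 members and with EHF lowered for 6, with 1 fall. Of all genes tested in both, 7.49% rose with EHF raised, and 9.94% rose and 8.92% fell with EHF lowered. The medians of the list were 0.38 and 0.09. Under both changes 6 members rose (28.6%, beside 1.5% of all genes), among them HLA-B, HLA-F, PSMB8, PSMB9 and PSME2. HLA-B was at 249, 246 and 268 (control) and 368, 358 and 383 (EHF) CPM in A253, 859 and 874 (control) and 1427 and 1476 (EHF) in SCC25, and 88.5 and 104 (control), 131 and 142 (sh 64) and 149.9 and 165 (sh 65) in CAL27. Its effects of 0.64 and 0.60 did not pass the test of their difference (0.053, SE 0.087, adjusted p = 0.786). HLA-F had 0.60 and 0.66. HLA genes are close copies of each other, so their reads may be split.

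Host defence genes, secreted or sensing proteins of the mucosal barrier, followed EHF in 6 of 23 members tested (26.1%, beside 1.12% of all genes): C3, CFB, LCN2, RNASE7, SAA1 and TLR2. With EHF raised 14 of the 23 rose and none fell by edgeR, and with EHF lowered 6 rose and 7 fell, with medians of 0.64 and -0.10. C3, the central complement protein, had effects of 0.65 and -0.77, and the bacterial sensor TLR2 of 0.43 and -0.46. S100A9 and DUOX2, an oxidase of the mucosa, rose under both, DUOX2 with 0.67 and 1.74. Its raised call was lost without SCC25 control 2 or SCC25 EHF overexpression 2 (adjusted p = 0.0709 and 0.0704), and its lowered call without CAL27 control 2 (0.0714). Without CAL27 control 2, 4 members followed EHF.

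NF-kB targets and cytokines gave 9 of 32 higher and none lower with EHF raised, and 3 higher and 14 lower with EHF lowered, with medians of 0.20 and -0.27. Of all genes tested in both, 7.49% were higher with EHF raised and 9.94% higher and 8.92% lower with EHF lowered. Those that followed EHF were IL1A, IL1B, IL8 and NFKB1 (12.5%, beside 1.12% of all genes), and with sh 64 alone none of the 32 did. IL1A, an alarm cytokine of keratinocytes, was at 105 and 112 CPM in CAL27 controls, rose to 185 and 208 with sh 64 and fell to 33.1 and 30.5 with sh 65, so that its mean lowered effect of -0.46 joined opposite changes (0.85 and -1.77). IL1B did the same, at 154 and 161 (control), 239.5 and 264 (sh 64) and 67.5 and 60.7 (sh 65) CPM, and IL8 too, at 92.4 and 106 (control), 128 and 153 (sh 64) and 37.2 and 42.2 (sh 65). The lowered call of IL1B was lost without CAL27 control 2 (adjusted p = 0.112). Without CAL27 control 2, 1 member of the list followed EHF, and without A253 control 1, SCC25 control 1, SCC25 EHF overexpression 1 or SCC25 EHF overexpression 2, 2 did. PTGS2, the inducible prostaglandin synthase, and TNFAIP2 were counted as higher under both, with raised effects of 0.24 and 0.22 and lowered effects of 0.47 and 0.19. The raised effects came from SCC25 (0.62 and 0.44) rather than A253 (-0.14 and 0.004). With sh 65 alone PTGS2 changed by -0.37 and was not called (adjusted p = 0.234). Both calls of PTGS2 and the lowered call of TNFAIP2 failed under several single omissions (adjusted p from 0.0585 to 0.357).

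NRF2 targets, antioxidant and detoxifying enzymes, ran against EHF in 7 of 35 members (20%, beside 0.923% of all genes), among them AKR1B10, AKR1C2, AKR1C3, GPX2, GSR and SLC7A11. With EHF raised 2 rose and 9 fell (5 falls in A253 and 15 in SCC25), with EHF lowered 18 rose and 1 fell, and the medians were -0.0607 and 0.27. AKR1C3 had effects of -0.42 and 1.76 and AKR1B10 of -0.53 and 1.29, while GSR, glutathione reductase, had -0.14 and 0.42. With A253 alone 4 members ran against EHF. ALDH3A1, an aldehyde dehydrogenase, rose under both (0.46 and 0.99), a raised call lost without SCC25 EHF overexpression 2 (adjusted p = 0.0676). Of 29 genes of the ATF4 response to amino acid shortage, 15 rose and 1 fell with EHF lowered, beside 9.94% and 8.92% of all genes. With EHF raised 1 of the 29 rose and 4 fell, beside 7.49% and 6.74% of all genes. DDIT4, PHGDH and SLC3A2 ran against EHF (10.3%, beside 0.923% of all genes). Their lowered effects were 0.71, 1.15 and 0.25 and their raised effects -0.35, -0.21 and -0.21. ATF3 rose under both (0.57 and 0.74), its raised effect coming from SCC25 (1.16, against -0.0018 in A253), and its lowered call was lost without CAL27 control 1 (0.0527).

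Among 27 basal keratinocyte genes, ITGA3, ITGB1 and LAMB3 followed EHF, KRT14, KRT16, KRT6A and SOX2 ran against it, and NGFR and TP63 rose under both (11.1%, 14.8% and 7.41%, beside 1.12%, 0.923% and 1.5% of all genes). The overexpression lines differed in direction, with 1 member higher and 10 lower in A253 (median -0.14) and 16 higher and 2 lower in SCC25 (median 0.20). KRT14, the main basal keratin, was at 693 and 769.9 CPM in CAL27 controls, 1786 and 1566 with sh 64 and 1569 and 1926 with sh 65 (lowered effect 1.23, adjusted p = 9.58e-07). With EHF raised it went from 3124, 3085 and 3626 to 2590, 2704 and 2538 CPM in A253 and from 4856 and 5088 to 4670 and 4913 in SCC25, and its small raised effect of -0.20 was lost without SCC25 control 2 (adjusted p = 0.0700) or SCC25 EHF overexpression 1 (0.107). KRT6A had -0.20 and 0.91, with its raised call lost without SCC25 control 2 (0.0809). KRT16, a keratin of stressed epidermis, fell in A253 (-0.66) and rose in SCC25 (0.16). Its mean raised effect of -0.25 was lost without SCC25 EHF overexpression 1 (0.0634). TP63, the master factor of stratified epithelium, rose under both (0.38 and 0.41), and NGFR, a receptor of basal cells, did so in all 3 lines (0.44 and 1.04). KRT14 and KRT6A, like other keratins, have close copies, which can split their reads.

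Epidermal differentiation genes rose with EHF lowered in 17 of 29 members, with a median of 0.53, and with EHF raised in 5, with a median of -0.0052, and none fell by edgeR in either. The raised values average lines that differed in direction: 2 members rose and 4 fell in A253 (median -0.19), and 9 rose and none fell in SCC25 (median 0.15). Of all genes, A253 called 5.03% higher and 2.94% lower and SCC25 12.2% higher and 11.6% lower. DSC2, GRHL1, IVL and KRT4 rose under both (13.8%, beside 1.5% of all genes). GRHL1, a transcription factor of the epidermal barrier, had 0.50 and 0.51, with its lowered call lost without CAL27 control 1 or 2 (adjusted p = 0.0541 and 0.124). IVL, involucrin of the cornified envelope, was at 0.442 and 0.505 CPM in CAL27 controls, 2.55 and 1.42 with sh 64 and 0.719 and 1.82 with sh 65, with effects of 0.94 and 1.71, and its lowered call failed without either CAL27 control, sh 64 replicate 1 or sh 65 replicate 2 (from 0.0821 to 0.145). Without CAL27 control 1 or control 2, 2 members rose under both. Of 34 epithelial adhesion genes, the claudins CLDN1 and CLDN7, which seal tight junctions, rose under both and the desmosomal plaque protein PKP1 ran against EHF. These were 5.88% and 2.94% of the list, beside 1.5% and 0.923% of all genes. CLDN7 had 0.52 and 1.07 and PKP1 -0.30 and 1.27. With EHF raised PKP1 changed by -0.51 in A253 and by -0.09 in SCC25, where it was not called (adjusted p = 0.208). CLDN1 had 0.78 and 0.30, and was not called in SCC25 alone (adjusted p = 0.129). Its lowered call was lost without CAL27 control 1 (effect 0.216) or sh 64 replicate 2 (0.223).

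Mesenchyme and matrix genes included 2 of 36 that followed EHF (PLAUR and THBS1), MMP13 higher under both and 3 lower under both, among them FN1 and SNAI2. These were 5.56%, 2.78% and 8.33% of the list, beside 1.12%, 1.5% and 1.13% of all genes. With EHF raised 4 rose and 4 fell (median 0.14), and with EHF lowered 3 rose and 15 fell (median -0.23). The raised counts join 1 rise and 5 falls in A253 (median -0.06) with 17 rises and 2 falls in SCC25 (median 0.27). FN1, fibronectin, had -0.30 and -0.71, and the raised call was lost on leaving out any of 8 of the 10 A253 and SCC25 libraries, all but A253 control 3 and A253 EHF overexpression 1 (adjusted p from 0.0625 to 0.237), while the lowered call was lost without CAL27 control 1 (0.0677). Of the list, 1 member was lower under both without CAL27 control 1, A253 control 1, A253 EHF overexpression 2 or any 1 SCC25 library.

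Of 43 S phase genes, which copy DNA, 23 fell and none rose with EHF raised, 20 fell and none rose with EHF lowered by edgeR, and 12 fell under both (27.9%, beside 1.13% of all genes). MCM2, a subunit of the replicative helicase, was at 213 and 232 (control) and 162 and 162 (EHF) CPM in SCC25, 296 and 282 (control), 219 and 235 (sh 64) and 243 and 224 (sh 65) in CAL27, and 184, 173 and 184 (control) and 184, 172 and 178 (EHF) in A253, where it was not called (-0.018, adjusted p = 0.93). RRM2, the small subunit of ribonucleotide reductase, was called in all 3 lines (-0.27 and -0.20), and UHRF1, which maintains DNA methylation, had -0.28 and -0.42. In A253 1 of the 43 fell and 1 rose, in SCC25 32 fell. The count of 12 was 1 with A253 alone, 3 under the additive model, 1 without CAL27 control 1, 3 without CAL27 control 2 and 7 without SCC25 EHF overexpression 1. Of 59 mitosis genes, 5 fell under both (BIRC5, CCNB1, CDCA5, CDCA8 and KIF15, 8.47%), and 39 fell in SCC25 against none in A253 by edgeR. Their count was 0 without CAL27 control 2, 1 without CAL27 control 1 or SCC25 control 2, 2 without sh 64 replicate 1 or SCC25 EHF overexpression 1, and 3 without A253 control 1 or SCC25 EHF overexpression 2. In addition, the calls of CDCA5, KIF15 and the S phase gene GINS2 with EHF lowered were lost without either CAL27 control (adjusted p from 0.0650 to 0.485). Of 53 replication-dependent histones, 4 ran against EHF, but none did by DESeq2, with A253 alone, with sh 64 alone or without either CAL27 control, and 50 fell in SCC25 against none in A253 by edgeR. HIST1H3I and HIST1H4A, both among the 4, had raised effects of -0.28 and -0.26 and lowered effects of 0.26 and 0.28, and are close copies of other histone genes.

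**Figure D4:**
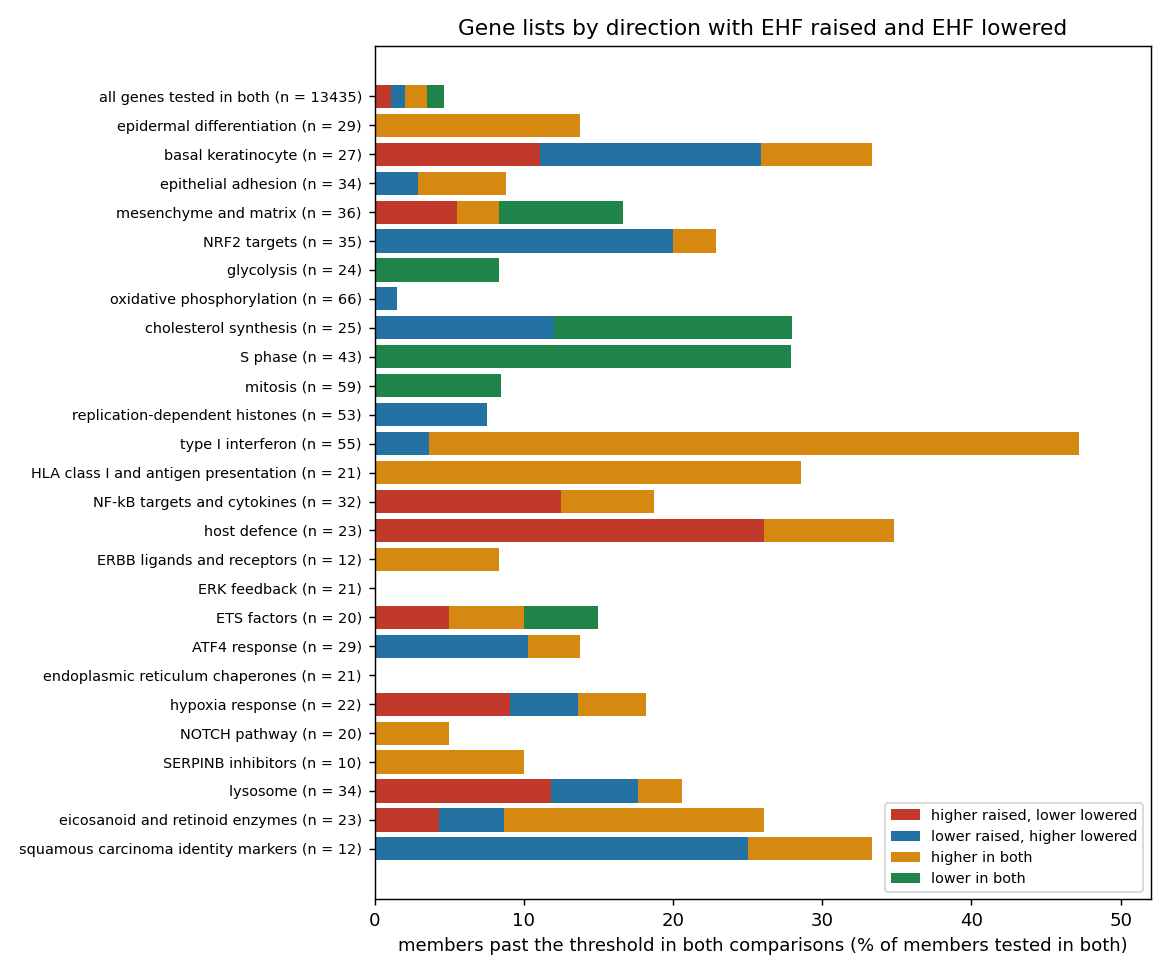
Percent of the members tested in both comparisons that passed the threshold in both, by direction, for the lists with at least 10 such members and for all genes. The interferon list has the longest segment of genes higher under both (43.6%), S phase the longest of genes lower under both (27.9%) and host defence the longest of genes that followed EHF (26.1%). The lists were chosen with earlier results of these data known, so the shares are a description only.

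Of 25 cholesterol synthesis genes, 3 ran against EHF, among them INSIG1, and 4 fell under both, among them ACAT2, EBP and SQLE (12% and 16%, beside 0.923% and 1.13% of all genes). With EHF raised 14 of the 25 fell and none rose by edgeR, with 13 falls in SCC25 and none in A253, where 1 rose. INSIG1, a sensor of the pathway, rose with sh 64 from 97.9 and 107 to 173 and 177 CPM and was at 87.9 and 106 with sh 65, and its lowered call was lost without CAL27 control 1 (adjusted p = 0.133). The lowered effects of EBP and ACAT2 came from sh 65 (-0.385 and -0.520) rather than sh 64 (-0.028 and -0.065, adjusted p of the difference = 0.0131 and 0.00179). Both lost their lowered calls without CAL27 control 2 (effects -0.20 and -0.26). EBP also lost this call without CAL27 control 1, sh 64 replicate 2 or sh 65 replicate 1. Its raised call was lost without SCC25 control 2 or SCC25 EHF overexpression 2. No member of this list ran against EHF without CAL27 control 1, with A253 alone or with sh 65 alone. Of 24 glycolysis genes, 2 rose and 13 fell in SCC25, and 2 rose and 2 fell in A253. Of all genes, SCC25 called 12.2% higher and 11.6% lower, and A253 5.03% and 2.94%. With EHF lowered 1 rose and 3 fell, beside 9.94% and 8.92% of all genes. ALDOC and SLC16A1, the lactate exporter, fell under both by the mean effects (8.33%, beside 1.13% of all genes). SLC16A1 had -0.18 and -0.40. ALDOC changed by -0.36 in SCC25 and -0.018 in A253 (adjusted p = 0.932). With sh 64 it changed by 0.10 and with sh 65 by -0.83. Most omissions of a CAL27 library ended its lowered call (effects from -0.46 to -0.234). Of 66 oxidative phosphorylation genes, 21 rose with EHF lowered (9.94% of all genes did) and 2 fell with EHF raised (6.74% of all genes). The lines differed, with 29 falls and no rise in SCC25 (median -0.14) and 3 rises and no fall in A253 (median 0.10). NDUFB9 was the 1 member called in both (1.52%). Its lowered call was lost without CAL27 control 1 (0.342), CAL27 control 2 (0.138) or sh 64 replicate 1 (0.105), and its raised call without A253 control 1 (0.0501), SCC25 control 2 (0.135) or SCC25 EHF overexpression 1 (0.109). Of 22 hypoxia response genes, AK4 and ERO1L followed EHF (9.09%), DDIT4 ran against it (4.55%) and NDRG1 was higher under both (4.55%). The lowered call of NDRG1 was lost without CAL27 control 1 (effect 0.998) or 2 (1.27). Its raised call was lost in 7 of 10 omissions (effects from 0.0967 to 0.148). ERK feedback genes and endoplasmic reticulum chaperones, 21 each, had no member called in both by edgeR.

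Of 34 lysosome genes, 4 followed EHF, among them CTSS, HEXA and LAPTM5, while CTSC and CTSL2 ran against it and CTSD rose under both. These were 11.8%, 5.88% and 2.94% of the list, beside 1.12%, 0.923% and 1.5% of all genes. CTSD, an aspartic protease, had 0.43 and 0.33, with its lowered effect from sh 65 (0.54) rather than sh 64 (0.12, adjusted p of the difference = 0.00145). The lowered call of CTSC was lost without CAL27 control 1 (adjusted p = 0.315) and its raised call without SCC25 EHF overexpression 1 (0.0586). Of 23 eicosanoid and retinoid enzymes, ALOX5 followed EHF (4.35%), PTGS1 ran against it (4.35%), and CRABP2, DHRS3, PTGS2 and STRA6 rose under both (17.4%). CRABP2, which carries retinoic acid, had 0.41 and 0.83, lost without CAL27 control 1 (0.0557), and PTGS1 had -0.46 and 0.30, lost without CAL27 control 1 (0.164) or 2 (0.0744). Of 20 ETS factors, EHF was the 1 member that reversed, ETV7 rose under both and ETS1 fell under both (-0.18 and -0.47, the lowered call lost without CAL27 control 1 or either sh 64 library, from 0.0588 to 0.230, and the raised call without A253 control 1, SCC25 control 1 or either SCC25 overexpression library, from 0.0543 to 0.125). Among the 4 epithelial relatives of EHF, 2 were tested in both and only EHF itself was called in both.

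Smaller lists held 1 gene each among those higher under both: SERPINB13 of 10 SERPINB inhibitors, ADAM17 of 20 NOTCH pathway genes and ERRFI1 of 12 ERBB ligands and receptors. ADAM17, the sheddase that cuts NOTCH and ERBB ligands, lost its raised call on leaving out any of 8 single libraries of A253 and SCC25 (all but A253 control 3 and A253 EHF overexpression 1, adjusted p from 0.0575 to 0.146) and its lowered call without either CAL27 control or either sh 64 library (from 0.0514 to 0.423). ERRFI1, an inhibitor of EGFR, had effects of 0.79 in SCC25 and -0.035 in A253, and of 0.60 with sh 64 and -0.032 with sh 65. Its lowered call was lost without either CAL27 control (0.119 and 0.139) and its raised call in 6 of 10 omissions (from 0.0851 to 0.144). Of the 12 squamous identity markers KRT14, KRT6A and PKP1 ran against EHF and TP63 rose under both, and of 7 myoepithelium markers KRT14 ran against EHF and TP63 rose under both. No salivary gland marker was tested in both.

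A small group of genes changed in opposite directions in the overexpression lines themselves: 62 genes were called in both A253 and SCC25 with opposite signs. KRT1, a keratin of the upper epidermis, fell in A253 from 2.01, 2.42 and 1.8 to 0.427, 0.668 and 0.514 CPM and rose in SCC25 from 0.803 and 0.947 to 1.98 and 1.66, though the SCC25 call was lost on leaving out any 1 of its 4 libraries (adjusted p from 0.0814 to 0.157). ROR1, a receptor tyrosine kinase-like protein, rose in A253 (0.63) and fell in SCC25 (-0.62), the latter call being lost without either SCC25 control or SCC25 EHF overexpression 2 (from 0.0818 to 0.357). NEDD9, a scaffold of focal adhesions, fell in A253 (-0.61) and rose in SCC25 from 59.5 and 62.3 to 103 and 103 CPM (0.76), and its A253 call was lost without A253 control 2, A253 control 3 or A253 EHF overexpression 3 (from 0.0688 to 0.0990).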

How the data were processed

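Gene counts of 16 mRNA libraries were analysed: 6 of A253, 4 of SCC25 and 6 of CAL27. The deposited count tables hold whole-number read counts per gene, which the authors made with TopHat2 2.1.1, Bowtie 1.1.1 and featureCounts 1.5.3 on hg19, per the submitters' processing notes, which also name DESeq2 1.12.4. The deposited TPM tables were used only to check gene names and library names, not for any test. The 3 count tables list 23710 genes in 1 order and were joined by row position, because 696 gene names of the CAL27 table were altered. Names came from A253, which equal those of the CAL27 TPM table for 23710 rows. 28 names read as dates were left as they are. The 4 columns of the SCC25 TPM table were not used.

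Counts were filtered by expression, scaled by TMM and tested with edgeR 4.0.16 (R 4.3.3, limma 3.58.1), quasi-likelihood with robust dispersion and Benjamini-Hochberg adjustment at 0.05. The raised effect came from the 10 A253 and SCC25 libraries, the lowered effect from the 6 CAL27 libraries, and their difference from all 16. Totals of 7068155 to 19962159 counts per library set the precision. Ratios on 1 to 3 control counts carry exact 0.95 intervals, which cover counting error only. The scripts were tested on simulated data. Alternatives were DESeq2 1.42.0, its size factors, no filter, a joint fit, a replicate block, single lines or knockdowns, an additive model, a 1.5-fold minimum and leaving out each library.

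The members and the 32 gene lists were chosen with earlier results of these data known. Named genes were EHF, then in each class the 6 with the largest smaller absolute effect among genes with average log2 CPM of at least 2, the same sign in A253 and SCC25 and no overlap of groups. To these were added the 6 reversing and 6 alike genes with the largest smallest effect over all 3 lines, up to 2 members per class of each list, and the 3 largest opposed between A253 and SCC25. A few genes that the rule or the lists would name are not reported here, and counts over lists include them.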

Additional observations from a re-analysis of the deposited data

Results flagged for a closer look

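The effect of raising EHF differed between SCC25 and A253 for 28 of the named genes, by the interaction of line and EHF in edgeR's quasi-likelihood test. Each value is the SCC25 log2 change minus the A253 log2 change, with 3 libraries a group in A253 and 2 in SCC25.

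Among the genes of the 4 classes, the change was lower in SCC25 for EHF (-2.05), SDPR (-0.8), LCN2 (-2.22), GPX2 (-0.59), S100A9 (-2.53), WNT4 (-0.71), KCNJ2 (-1.62), ALDOC (-0.37), INSIG1 (-0.53), KIF15 (-0.48), HIST1H3I (-0.55) and IL1A (-0.75). It was higher in SCC25 for MMP13 (1.91), SERPINB13 (0.9), TMPRSS4 (0.69), KRT16 (0.8), OASL (0.69), HERC5 (0.69), HLA-F (0.58), PTGS2 (0.75), TNFAIP2 (0.42), ERRFI1 (0.82) and ATF3 (1.15).

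Low counts in 1 line lie behind LAPTM5 (-3.87) and STRA6 (3.68), where the controls of A253 held 2 LAPTM5 counts and those of SCC25 1 STRA6 count, so that these fitted differences are no measure of size. The lines were called with opposite signs for KRT1 (2.96), ROR1 (-1.26) and NEDD9 (1.35), and also for KRT16, given above.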

How the results depend on the processing

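By DESeq2 the calls numbered 1481 with EHF lowered, 1589 in SCC25 and 536 for the difference between lines. DESeq2 also gave 94 genes that followed EHF, 63 that ran against it, 132 higher and 60 lower under both changes, hence 157 reversed and 192 alike, with 47 and 60 of these in all 3 lines. A joint fit of 16 libraries gave 1709 calls in SCC25. A253 alone gave 1156 calls with EHF raised and 160 genes alike (123 higher, 37 lower), and SCC25 alone 3370 and 635 (366 higher, 269 lower). The additive model gave 211 alike, 62 of them lower. A 1.5-fold minimum in both left 33 reversed (26 following, 7 against) and 31 alike (30 higher, 1 lower).

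Leaving out 1 library gave 937 to 3038 calls with EHF lowered, 1216 to 2317 with EHF raised, 658 to 1036 in A253, 2124 to 3639 in SCC25, 318 to 936 for the difference between lines and 1406 to 2259 for raised against lowered. Reversed genes ranged from 141 to 297 (following 80 to 162, against 60 to 137) and alike genes from 157 to 447 (higher 103 to 259, lower 54 to 188), with 47 to 91 and 58 to 120 in all 3 lines.

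No named gene changed sign on leaving out 1 library, under DESeq2, its size factors, no filter, the joint fit, the additive model or the block. Signs reversed with A253 alone for PTGS2 (-0.138), ERRFI1 (-0.0352) and ATF3 (-0.0018), and with SCC25 alone for KRT16 (0.161), OASL (0.130) and HERC5 (0.134). With sh 64 alone they reversed for ALDOC (0.100), IL1A (0.848) and IL1B (0.671), and with sh 65 alone for INSIG1 (-0.0855), PTGS2 (-0.372) and ERRFI1 (-0.0323). The cause was not tested.

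The deviations of same-numbered libraries correlated at -0.556, -0.091 and 0.607 in A253, 0.009 in SCC25 and -0.023 to 0.425 in CAL27. In A253 the signs were mixed. With 2 libraries a group, as in SCC25 and CAL27, the 2 deviations mirror each other, so pairing cannot be judged there. With the replicate block, calls numbered 2074 with EHF raised, 3317 with EHF lowered, 1073 in A253, 3521 in SCC25, 975 for the difference between lines and 2341 for raised against lowered, with 334 genes reversed and 453 alike. With 2 libraries in several groups, leaving 1 out assumes that the lone library varies like the others.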
